A study of Homo sapiens with 42 samples.

Results

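Chromatin accessibility was compared between MCF10A cells given hepatocyte growth factor (HGF) and MCF10A cells given epidermal growth factor (EGF), a direct comparison of a pair of ligands that act through receptor tyrosine kinases. The libraries were chosen by their titles. All 6 HGF libraries (3 at 24 h, 3 at 48 h) and all 8 EGF libraries (4 at 24 h, 4 at 48 h) of the collection entered, which is 14 of the 42 libraries of the series. MCF10A is a non-tumorigenic human breast epithelial cell line. Every group was plated on collagen-1, held in experimental medium with horse serum, hydrocortisone and cholera toxin but without EGF or insulin, and then given HGF at 40 ng/ml or EGF at 10 ng/ml, so dose differed between the ligands and its part in any difference cannot be told apart from the ligand's. For reference values, 4 libraries at 0 h, named CTRL in their titles but PBS in their treatment tag, and 6 libraries of PBS-treated cells (3 at 24 h, 3 at 48 h), which had the same medium and neither ligand, were read at the same sites.

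HGF binds the receptor MET and EGF binds EGFR. Both receptors phosphorylate themselves on tyrosines, recruit adaptors such as GRB2, GAB1 and SHC1, and feed the RAS-MAPK and PI3K pathways, whose nuclear end includes the FOS and JUN proteins of the AP-1 complex. HGF is also known as scatter factor because it makes epithelial colonies come apart, and MCF10A cells are routinely grown with EGF. In ATAC-seq, a transposase cuts DNA where chromatin is open, and stretches with many cuts are called as peaks, many of which lie at promoters or enhancers.

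Peaks from the 14 libraries were merged wherever they overlapped by at least 1 bp, and each merged interval is called a site. Merging gave 122738 sites, of which 25064 had a peak in only 1 library and were set aside. Of the 97674 kept, 19153 had a peak in all 14 libraries, and the other 78521 could differ in detection and were tested. The kept sites had a median width of 527 bp. Of them, 14.2% were at promoters (a centre no more than 1000 bp from the start of a gene). By place, and with promoter sites included, 44.3% lay in introns, 6.74% in exons and 48.98% were intergenic. Only protein-coding genes were used for places and distances, so an intergenic site can lie in a gene of another kind.

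The number of peaks per library ranged from 34001 (HGF 48 h replicate C) to 103106 (EGF 24 h replicate D). HGF 24 h replicate C had 39189 and EGF 24 h replicate B had 44099, and both are among the libraries that failed the quality check of the study. The mean log10 peak number did not differ detectably between ligands (4.83 ± 0.21 SD in HGF, n = 6, against 4.88 ± 0.11 in EGF, n = 8; two-sided exact permutation within time, p = 0.651), nor did the share of peaks at promoters (25.3% ± 5.55 against 23.6% ± 2.65; exact permutation p = 0.485). A library with fewer peaks holds fewer sites of every kind, so detection was adjusted: sites were put into classes by how many of the 14 libraries held them, and a library's score at a site was 1 or 0 for peak or no peak minus the share of that class the library detected. The files hold no read counts, so depth behind a single site is unknown and no peak is not a measure of closed chromatin. Of 10 epithelial marker promoters, 9 had a peak in at least 1 of the 14 libraries, and KRT8, KRT18, ITGB4, LAMB3 and ESRP1 had one in all 14. TP63 had none. Of 17 fibroblast, endothelial and immune marker promoters, TWIST2 and CD14 had a peak in all 14, COL1A2 in 4, and the other 14 in none.

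Libraries of one ligand were more alike than libraries of different ligands. Within a time, the mean Pearson correlation of adjusted detection over sites was -0.00811 between same-ligand libraries (18 pairs) and -0.104 between different-ligand libraries (24 pairs), a difference of 0.0964. This was the most extreme of the 1225 ways to assign the ligand labels within time (one-sided exact permutation p = 0.000816, the smallest these labels can give). With any 1 library left out, the difference stayed between 0.0743 and 0.113. The correlations themselves were small. The adjustment sets each library against the others, so values around 0 are usual, and the points share sites and libraries.

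**Figure D1:**
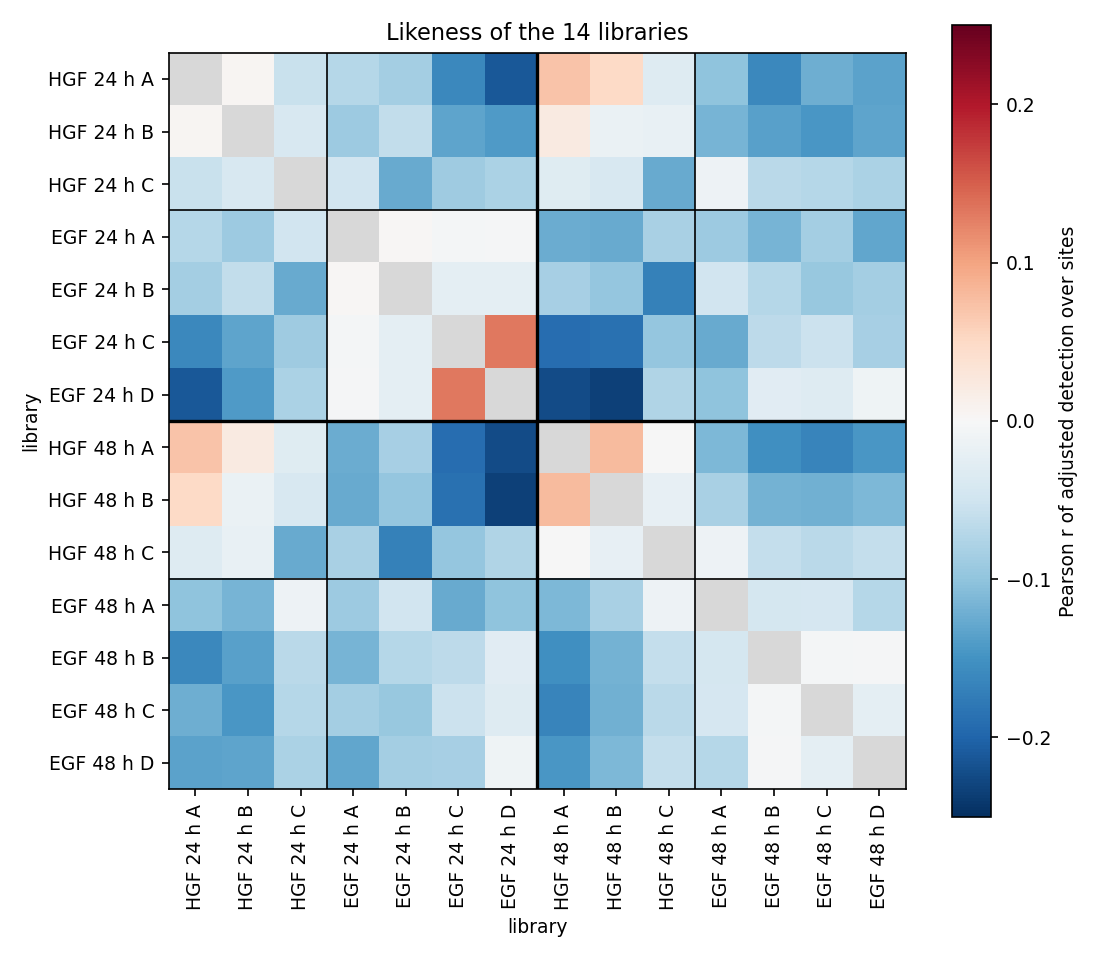
Pearson correlation of adjusted detection over sites for each pair of the 14 libraries, both axes listing the libraries by time and ligand (blue below 0, red above 0, grey for a library with itself). Different-ligand blocks are blue throughout (mean -0.104 within time), and the highest value is between EGF 24 h replicates C and D (0.132).

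No single site passed the threshold for detection. With limma on adjusted detection (a call needed a difference of 0.5 or more and a Benjamini-Hochberg adjusted p under 0.01 over all 78521 sites), 0 sites (0%) were called for HGF against EGF over both times, and 0 (0%) at 24 h, 0 (0%) at 48 h and 0 (0%) for the difference between the times. The lowest adjusted p-values were 0.0702, 0.254, 0.170 and 0.557 in that order. Sites with a peak in every library of 1 ligand and in none of the other were among those at the lowest value over both times, at 24 h and at 48 h. Even the most complete switch thus missed this threshold, and the counts of 0 do not show that the ligands were alike at single sites. At an unadjusted p below 0.05 there were 8579 sites over both times (10.9%), 7059 at 24 h (8.99%), 6345 at 48 h (8.08%) and 4136 for the time difference (5.27%). The 8579 divided into 4514 more often detected with HGF (5.75%) and 4065 more often detected with EGF (5.18%).

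The count of calls depended on the settings and on single libraries. Over both times, limma called 66 sites when each library was reduced to its 33227 strongest peaks, 611 when libraries were weighted by their spread, and 39 when all 13 groups of the series shared the fit. Of the 66 and the 39, 1 site was shared, and 1 of the 66 and 37 of the 39 were among the 611. At 24 h, leaving out HGF 24 h replicate C alone brought the count from 0 to 456 (443 higher and 13 lower in HGF), and leaving out both libraries that failed the quality check brought it to 569. At 48 h, weighting gave 1474.

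Only 8 sites separated the ligands completely, with a peak in every library of 1 ligand and in none of the other. Sequences of 4 of the 5 EGF sites are shown first, with the letters in them that are bound by 3 transcription factor families: AP-1 (searched as TGANTCA), the TEAD family, which works with the co-activators YAP and TAZ (GGAATG), and the RUNX family (TGTGGTT). The last sequence is the site with the lowest p among HGF-leaning sites that hold the palindrome bound by the glucocorticoid receptor (G, any base, ACA, any 3 bases, TGT, any base, C; here GRE). Each is the 201 bp around the centre of the peak summits, plus strand of GRCh38, the build the peak files use, and capitals mark matches on either strand.
TGFB2 distal site, chr1:218660769-218660969: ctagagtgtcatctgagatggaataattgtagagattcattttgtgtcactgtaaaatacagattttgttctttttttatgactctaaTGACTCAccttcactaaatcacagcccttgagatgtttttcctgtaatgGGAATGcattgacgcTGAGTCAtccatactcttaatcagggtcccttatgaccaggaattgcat
MAP1LC3B2 distal site, chr12:116528158-116528358: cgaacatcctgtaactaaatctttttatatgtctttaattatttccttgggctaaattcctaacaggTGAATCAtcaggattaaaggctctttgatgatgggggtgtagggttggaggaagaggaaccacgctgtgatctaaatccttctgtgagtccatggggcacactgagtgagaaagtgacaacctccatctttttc
CD34 distal site, chr1:207847161-207847361: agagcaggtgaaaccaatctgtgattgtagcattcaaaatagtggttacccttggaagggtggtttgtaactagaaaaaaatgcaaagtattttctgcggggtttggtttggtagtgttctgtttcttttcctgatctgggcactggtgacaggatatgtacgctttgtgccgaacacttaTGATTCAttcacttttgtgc
MSRB3 distal site, chr12:65532876-65533076: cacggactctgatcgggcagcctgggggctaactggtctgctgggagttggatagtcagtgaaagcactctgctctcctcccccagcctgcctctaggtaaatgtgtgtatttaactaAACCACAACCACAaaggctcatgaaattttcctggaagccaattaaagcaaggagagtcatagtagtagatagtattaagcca
IRX3 distal site, chr16:54425931-54426131: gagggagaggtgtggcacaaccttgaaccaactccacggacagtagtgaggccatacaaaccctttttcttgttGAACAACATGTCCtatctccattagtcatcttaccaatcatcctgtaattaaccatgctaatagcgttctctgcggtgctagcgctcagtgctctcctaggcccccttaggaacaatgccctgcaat

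The TGFB2 site held 2 AP-1 matches and 1 TEAD match, the MAP1LC3B2 and CD34 sites 1 AP-1 match each, and the MSRB3 site 2 overlapping RUNX matches. These are matches of letters and do not show that a factor was bound. AP-1 letters stood in 37.7% of all 97674 kept sites within 100 bp of the centre, TEAD letters in 15.7%, RUNX letters in 6.23% and GRE letters in 0.598%.

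The 5 sites with a peak in all 8 EGF and 0 of 6 HGF libraries (0.00637% of those tested) had a difference in adjusted detection of -0.980 each (SE 0.176, limma adjusted p = 0.0702), which did not pass the threshold. The TGFB2 site (chr1:218660440-218661001) lay 314634 bp from the start of TGFB2, which encodes a transforming growth factor beta. Its fold enrichment over the local background, as the peak caller gave it, was 5.66, 4.24, 4.41 and 7.06 at 24 h of EGF and 4.66, 5.37, 3.77 and 5.91 at 48 h. It had a peak in all 4 CTRL libraries and in 0 of 6 PBS libraries. The MAP1LC3B2 site (chr12:116528097-116528549, 31123 bp from the start of this autophagy gene) ran from 3.74 to 6.80 over the EGF libraries, with a peak in 4 of 4 CTRL and 0 of 6 PBS libraries. The MSRB3 site (chr12:65532765-65533074, 253491 bp away) was found in 3 CTRL and 0 PBS libraries, and the CD34 site (chr1:207847125-207847419, 43231 bp away) in 3 CTRL libraries and 1 PBS library. So at 3 of these 4 sites the HGF and PBS libraries alike held no peak, while most CTRL libraries, taken at 0 h, held one. These counts in PBS and CTRL are not adjusted for peak number. The CTRL libraries had 109226 to 113805 peaks, more than any of the 14 libraries compared. The PBS libraries other than 24 h replicate A had 16265 to 51628. The part of peak number in this pattern was not tested.

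The 3 sites with a peak in all 6 HGF and 0 of 8 EGF libraries (0.00382%) had a difference of 0.986 (SE 0.160, limma adjusted p = 0.0702). The strongest lay in an intron of HS6ST3 (chr13:96524608-96524922, 434686 bp from its start), a gene for an enzyme that adds sulphate to heparan chains. Its fold enrichment was 12.9, 12.2 and 5.27 at 24 h of HGF and 14.2, 13.5 and 6.13 at 48 h of HGF. The 4 CTRL libraries held it at 11.8 to 15.6 and 5 of 6 PBS libraries at 6.82 to 16.96, so it was missing from the 8 EGF libraries and from PBS 48 h replicate C, the library with the fewest peaks among these 24 (16265). A second site was intergenic on chromosome 2 (chr2:129017038-129017752), 698325 bp from HS6ST1, another gene of that enzyme family, with values of 3.91 to 6.67 in HGF. It was found in 3 of 4 CTRL and 2 of 6 PBS libraries. The last lay in an intron of PSMG4, a proteasome assembly chaperone gene (chr6:3244096-3244629, 12507 bp from its start), with 3.54 to 6.43 in HGF, and was found in 4 CTRL and 2 PBS libraries. Over single libraries left out, the adjusted p-values of these 8 sites reached 0.209 on the HGF side and 0.284 on the EGF side.

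**Figure D2:**
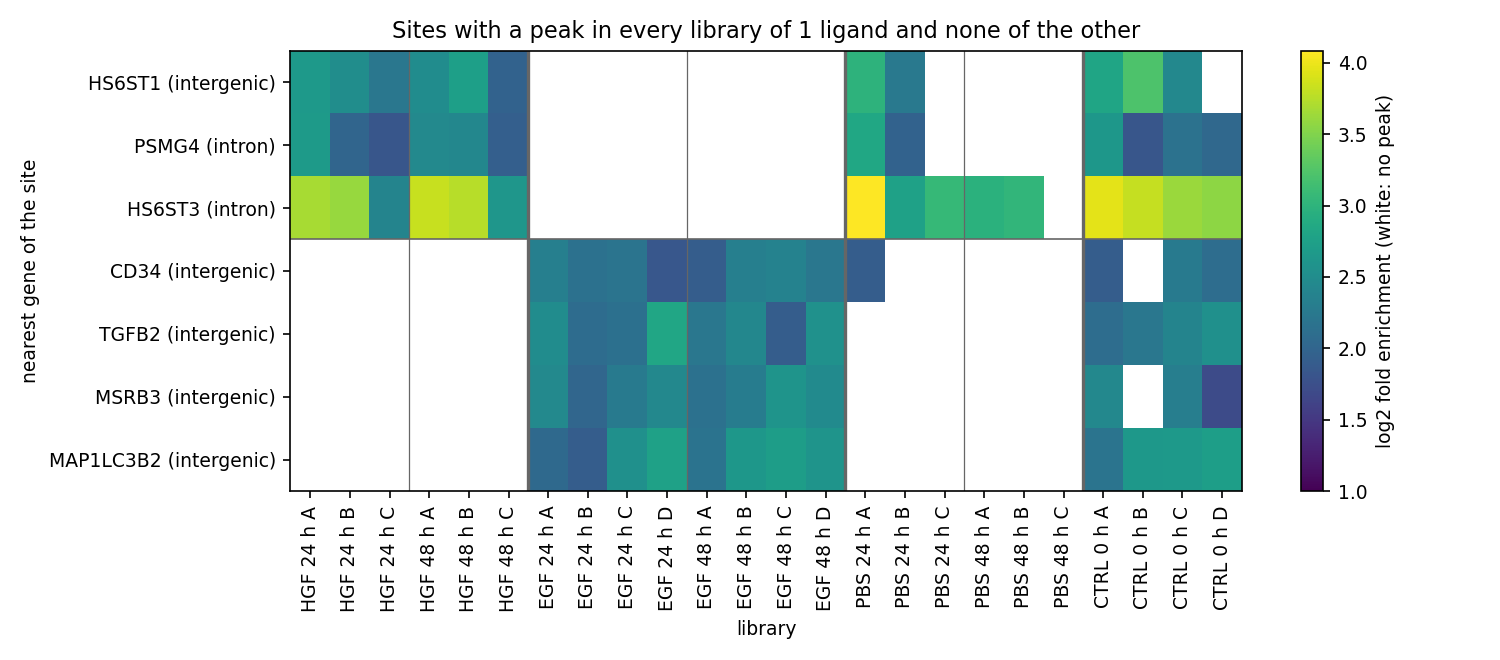
Log2 fold enrichment (colour, white for no peak) at 7 of the 8 sites that separated the ligands, by library on the horizontal axis and nearest gene on the vertical axis. The HGF sites are white in all 8 EGF libraries, and 3 of the 4 EGF sites drawn are white in all 6 HGF and all 6 PBS libraries while 3 or 4 CTRL libraries hold them.

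Within a time, the sites with the lowest p were again all or none for 1 group. At 24 h an intron of GPN1 (chr2:27638055-27638546) had a peak in 4 of 4 EGF and 0 of 3 HGF libraries, with a difference of -1.07 (SE 0.194, limma adjusted p = 0.254). At 48 h an intron of GRHL1, a transcription factor of epithelial differentiation (chr2:9972718-9973341), had one in 3 of 3 HGF and 0 of 4 EGF libraries (difference 1.09, SE 0.207, adjusted p = 0.170), but in 2 libraries of each ligand at 24 h. A promoter site in an intron of SLC16A5, a monocarboxylate transporter gene (chr17:75093756-75094125, 699 bp from its start), was detected in opposite fashion at the times. It had a peak in all 3 HGF and no EGF libraries at 24 h and in all 4 EGF and no HGF libraries at 48 h (time difference -1.84, SE 0.336, limma adjusted p = 0.557). None of these passed the threshold.

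Summed over many sites, detection differed between the ligands by sequence. For each library and motif, the number of detected sites with the motif was divided by the number its class detection shares predict, and the excess in percent is called the motif deviation. Of 24 motifs, 5 (20.8%) differed between HGF and EGF over both times (two-sided exact permutation within time, Benjamini-Hochberg adjusted p below 0.05 over the 24). AP-1, TEAD and RUNX motifs were lower in HGF, and GRE and SMAD motifs were higher. None of the same 24 strings written backwards passed (lowest adjusted p = 0.333, for the backward string of the GRHL motif).

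AP-1 letters stood at 36803 sites. Deviations at 24 h were -0.763, 0.575 and -9.31% in HGF and 4.90, 8.72, 6.88 and 7.07% in EGF, which did not overlap. At 48 h they were -2.69, -3.64 and -8.45% in HGF and -4.20, -1.61, -3.01 and -0.499% in EGF, which overlapped. The difference was -10.1 at 24 h (exact permutation p = 0.0286, the smallest that 35 label sets allow) and -2.60 at 48 h (p = 0.229), and -6.33 over both (p = 0.00408, adjusted p = 0.0196). A test of the 24 h against the 48 h difference was not run. The AP-1 string written backwards moved the same way at 24 h (-8.08, exact permutation p = 0.0286) and not over both times (-3.55, p = 0.0890), and what it shares with the AP-1 string was not tested.

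TEAD letters, at 15312 sites, separated the ligands with no overlap over the 14 libraries. HGF libraries lay at -0.690, -1.11 and -4.78% at 24 h and -2.59, -0.586 and -0.273% at 48 h. EGF libraries lay at 2.35, 2.62, 0.0887 and 1.00% at 24 h and 0.560, 1.03, 1.28 and 0.355% at 48 h. Every HGF value was below 0 and every EGF value above it, with a difference of -2.83 (exact permutation p = 0.000816, adjusted p = 0.00653).

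RUNX letters, at 6089 sites, did not overlap within either time. They lay at -1.88, 1.79 and -5.33% in HGF and 2.07, 3.31, 3.05 and 2.86% in EGF at 24 h. At 48 h they lay at -6.21, -2.51 and -5.96% in HGF and 0.578, 1.34, 1.96 and 0.642% in EGF. The difference was -5.33 over both times (exact permutation p = 0.000816, adjusted p = 0.00653), -4.63 at 24 h and -6.02 at 48 h. RUNX factors are known in breast epithelium as regulators of lineage genes.

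GRE letters went the other way. Hydrocortisone, the ligand of the glucocorticoid receptor, was in the medium of every group. At 584 sites, the deviation was 5.47, 5.96 and -4.69% at 24 h of HGF and 6.47, 5.20 and 10.1% at 48 h. In EGF it was -10.9, -11.3, -5.96 and -4.78% at 24 h. After 48 h of EGF it was 2.88, -5.79, 3.22 and -1.70%. Within each time every HGF library was above every EGF library, with a difference of 9.05 over both (exact permutation p = 0.000816, adjusted p = 0.00653). The IRX3 site printed above (chr16:54425697-54426702, 139244 bp from the start of this homeobox gene) had a peak in 3 HGF and 1 EGF library at 24 h and in 2 HGF and 0 EGF libraries at 48 h, a difference of 0.694 (limma adjusted p = 0.0787).

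SMAD letters (GTCTAGAC, bound by the SMAD proteins that carry TGF-beta and BMP signals) stood at 215 sites only. HGF deviations ran from 2.08 to 11.0% and EGF deviations from -10.4 to 2.08%, a difference of 9.51 (exact permutation p = 0.00327, adjusted p = 0.0196). With sites that also hold AP-1 letters left out, an alternative chosen after the data had been seen, the SMAD difference was 5.25 (adjusted p = 0.373). TEAD (-2.96), RUNX (-6.47) and GRE (10.1) letters still differed there, each with an adjusted p of 0.0188, although 39.7% of TEAD, 39.9% of RUNX and 32.02% of GRE sites were left out.

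The number of motifs past the threshold moved with the libraries and the peak number. Without HGF 24 h replicate A it was 2, without HGF 24 h replicate C 8 and without EGF 24 h replicate B 8. With 33227 peaks a library it was 2: TEAD (-4.58) and RUNX (-7.67), both with an adjusted p of 0.0196. AP-1 (-8.72, adjusted p = 0.0849), GRE (4.21, adjusted p = 0.307) and SMAD (5.69, adjusted p = 0.250) kept their direction there and did not pass. TEAD and RUNX passed with any 1 library left out (highest exact permutation adjusted p = 0.0343). At the 19153 sites found in all 14 libraries, where only peak strength can differ, none of the 24 motifs passed (lowest adjusted p = 0.274 for RUNX).

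**Figure D3:**
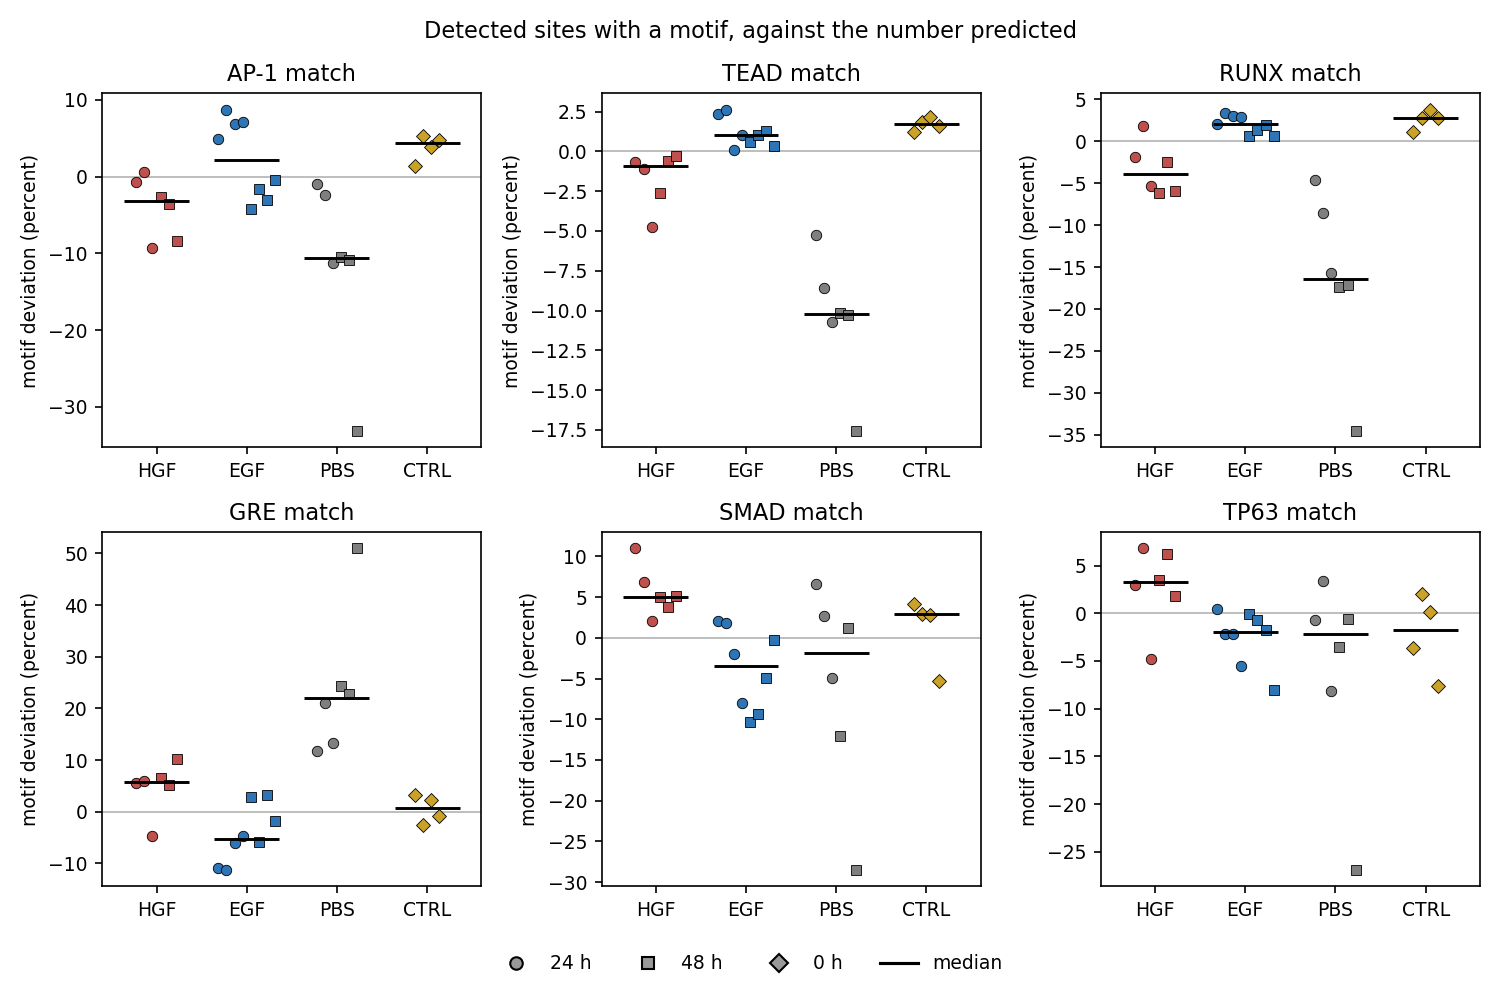
Motif deviation in percent (vertical axis) of each library in the HGF, EGF, PBS and CTRL groups (horizontal axis), one panel a motif, circles for 24 h, squares for 48 h, diamonds for 0 h and lines for medians. For TEAD, all 6 HGF libraries lie below 0 and all 8 EGF libraries above it, and the PBS libraries lie lower still, from -17.6 to -5.26%.

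Neither ligand is a baseline for the other, so the same measures were read in PBS and CTRL libraries. These libraries took no part in merging the sites or in the main fits and tests of HGF against EGF. The motif list was written with earlier results of these data known, so the readings are not independent of it. TEAD deviation was -17.6 to -5.26% in the 6 PBS libraries (median -10.2) and 1.22 to 2.18% in the 4 CTRL libraries. RUNX deviation was -34.6 to -4.68% in PBS (median -16.4) and 1.15 to 3.78% in CTRL. For both motifs every PBS library was below every EGF library, and the CTRL libraries overlapped the EGF libraries. AP-1 deviation was -33.2 to -0.932% in PBS and 1.41 to 5.27% in CTRL. GRE deviation was 11.8 to 50.99% in PBS and -2.65 to 3.15% in CTRL, so the PBS libraries were above every HGF library. SMAD did not follow this pattern. Its deviation was -28.5 to 6.58% in PBS (median -1.81) and -5.355 to 4.19% in CTRL, and the PBS libraries overlapped both ligands. The extreme PBS values came from 48 h replicate C, with 16265 peaks, and 5 of the 6 PBS libraries had 16265 to 51628 peaks. PBS 24 h replicate A had 104875 peaks. It lay at -5.26% for TEAD, -4.68% for RUNX, 11.8% for GRE, -0.932% for AP-1 and 6.58% for SMAD. Its TEAD, RUNX and GRE values lay beyond those of every EGF library, and its AP-1 value within the EGF range. Peak number thus moved with the PBS values, and its part in them was not tested.

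The sites that leaned to a ligand (unadjusted p below 0.05) were read the same way. Over the 4514 HGF-leaning sites, mean adjusted detection was above 0 in all 6 PBS libraries (0.00502 to 0.241, median 0.124) and -0.125 to 0.0691 in CTRL. Over the 4065 EGF-leaning sites it was below 0 in all 6 PBS libraries (-0.283 to -0.0206, median -0.110) and -0.0496 to 0.0953 in CTRL. In sign, PBS libraries thus lay on the HGF side at both sets of sites, and CTRL libraries on both sides of 0. PBS 24 h replicate A held a peak at 37.3% of the EGF-leaning sites, and the other PBS libraries at 0.172 to 3.49%, close to none. At both sets, PBS 24 h replicate A (104875 peaks) lay furthest from 0 and PBS 48 h replicate C (16265 peaks) nearest. The part of peak number in these values was not tested, and they do not show that HGF and PBS libraries were alike. These are descriptions with no test. The HGF and EGF values at these sites chose them and support nothing.

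**Figure D4:**
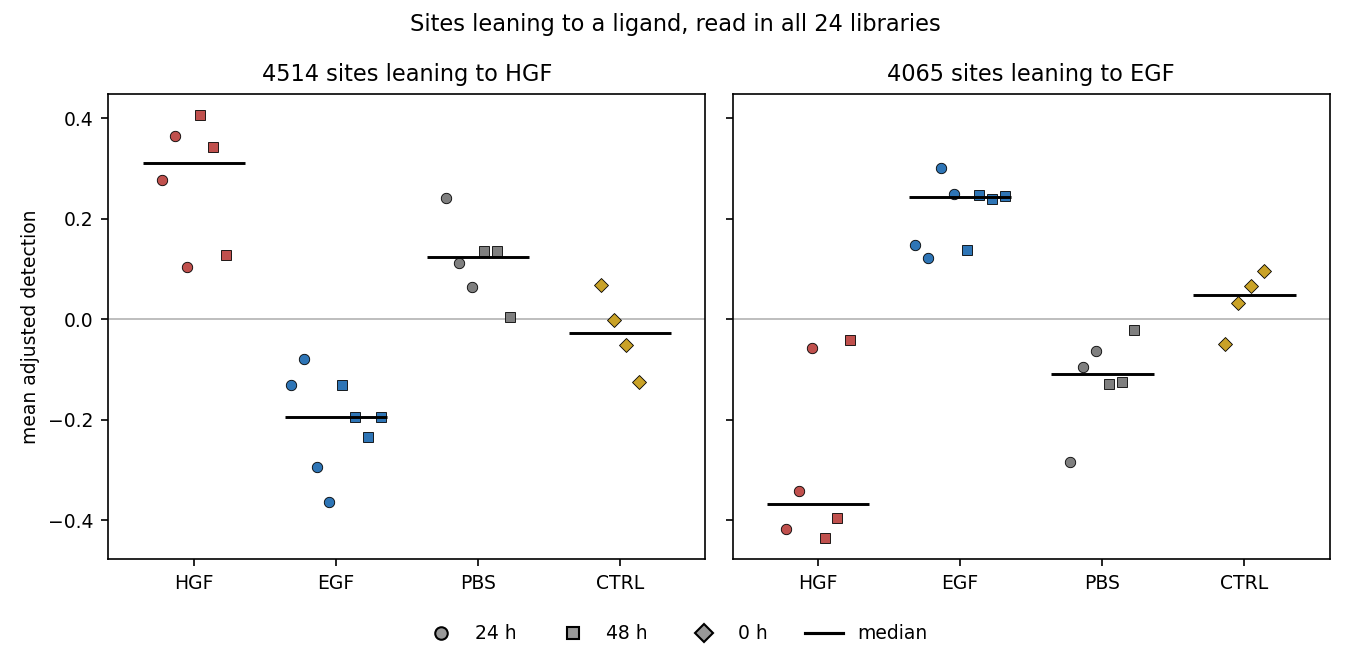
Mean adjusted detection (vertical axis) of each of the 24 HGF, EGF, PBS and CTRL libraries (horizontal axis) over 4514 HGF-leaning and 4065 EGF-leaning sites, circles for 24 h, squares for 48 h, diamonds for 0 h and lines for medians. PBS libraries lie above 0 at the HGF-leaning sites (median 0.124) and below it at the EGF-leaning sites (median -0.110).

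The make-up of the leaning sites is given as description only. These sites were chosen from the same libraries that gave the motif deviations, so their motif shares are no further support for them. AP-1 letters stood in 28.02% of HGF-leaning and 49.3% of EGF-leaning sites (38.7% of all tested), RUNX letters in 5.52% and 9.08% (6.38%), and TEAD letters in 14.4% and 20.0% (16.1%). Letters for CEBP factors (TTGCNNAA) stood in 21.9% and 13.8% (14.8%), and GRE letters in 0.997% and 0.418% (0.593%). Promoters were rarer on both sides (3.77% and 3.71%) than among all tested sites (8.54%). HGF-leaning sites were found in a median of 4 of 14 libraries, EGF-leaning sites in 6 and all tested sites in 7. The sets thus also differ in how widely their sites were found, and the shares are not matched for it.

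Where every library held a peak, its strength could be compared. Log2 fold enrichment was quantile normalised between the 14 libraries, so a difference of 1 is a doubling relative to the other sites. Over both times limma called 5 of 19153 sites (0.0261%) by the same rule, 3 higher and 2 lower in HGF, against 2020 at an unadjusted p below 0.05 (10.5%), of which 918 were higher (4.79%) and 1102 lower (5.75%). At 24 h, 48 h and for the time difference it called 0, 0 and 0 (0% each), with 1443 (7.53%), 1465 (7.65%) and 826 (4.31%) at an unadjusted p below 0.05. All 6 HGF libraries lay above all 8 EGF libraries at 34 sites (0.178%) and below them at 39 (0.204%). With 1 library left out, the count over both times ran from 3 (without HGF 24 h replicate C, HGF 48 h replicate B, EGF 24 h replicate A or EGF 48 h replicate A) to 10 (without EGF 24 h replicate B). Without both libraries that failed the quality check, 5 sites were called, 5 higher and 0 lower in HGF.

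The site with the lowest p was in an intron of LGALS8, which encodes a galectin, a sugar-binding protein (chr1:236540913-236541442, 15145 bp from its start). Its normalised log2 fold enrichment was 3.43, 3.39 and 3.18 at 24 h of HGF and 3.54, 3.53 and 3.57 at 48 h. In EGF it was 2.60, 2.56, 2.32 and 2.31 at 24 h, and it was 2.77, 2.92, 2.88 and 2.95 at 48 h. No EGF value reached the lowest HGF value. HGF was higher by 0.78 (SE 0.0975, limma adjusted p = 0.000932), by 0.89 at 24 h and 0.67 at 48 h. A site in an intron of LPP, which encodes a LIM protein of focal adhesions (chr3:188832863-188833681), was higher by 0.84 (3.68 ± 0.11 SD, n = 6, against 2.83 ± 0.24, n = 8; SE 0.112). An intergenic site 468899 bp from B3GALT2 (chr1:193655076-193655795) was higher by 0.84 (3.94 ± 0.07 against 3.10 ± 0.22; SE 0.112). Each of these had an adjusted p of 0.000932, kept its call with any 1 library left out, and held a peak in 4 of 4 CTRL and in 5 or 6 of 6 PBS libraries.

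Lower in HGF was an intergenic site 79855 bp from CES1, a carboxylesterase gene (chr16:55752813-55753694), which held 1 AP-1 match. It stood at 2.75, 2.69 and 2.45 at 24 h of HGF and at 2.21, 2.74 and 3.35 after 48 h, against 3.73, 3.90, 3.48 and 3.79 at 24 h of EGF and 3.54, 3.44, 3.52 and 3.70 at 48 h. No HGF value reached the lowest EGF value. The difference was -0.93 (SE 0.136, limma adjusted p = 0.00285), it lost its call in 4 of 14 fits with 1 library left out, and 2 of 6 PBS libraries held the peak. A site 247497 bp from SPATA31A6 on chromosome 9 (chr9:42430892-42431529) was lower by 0.70 (difference -0.70, SE 0.109, adjusted p = 0.00657) and lost its call in 11 of 14.

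**Figure D5:**
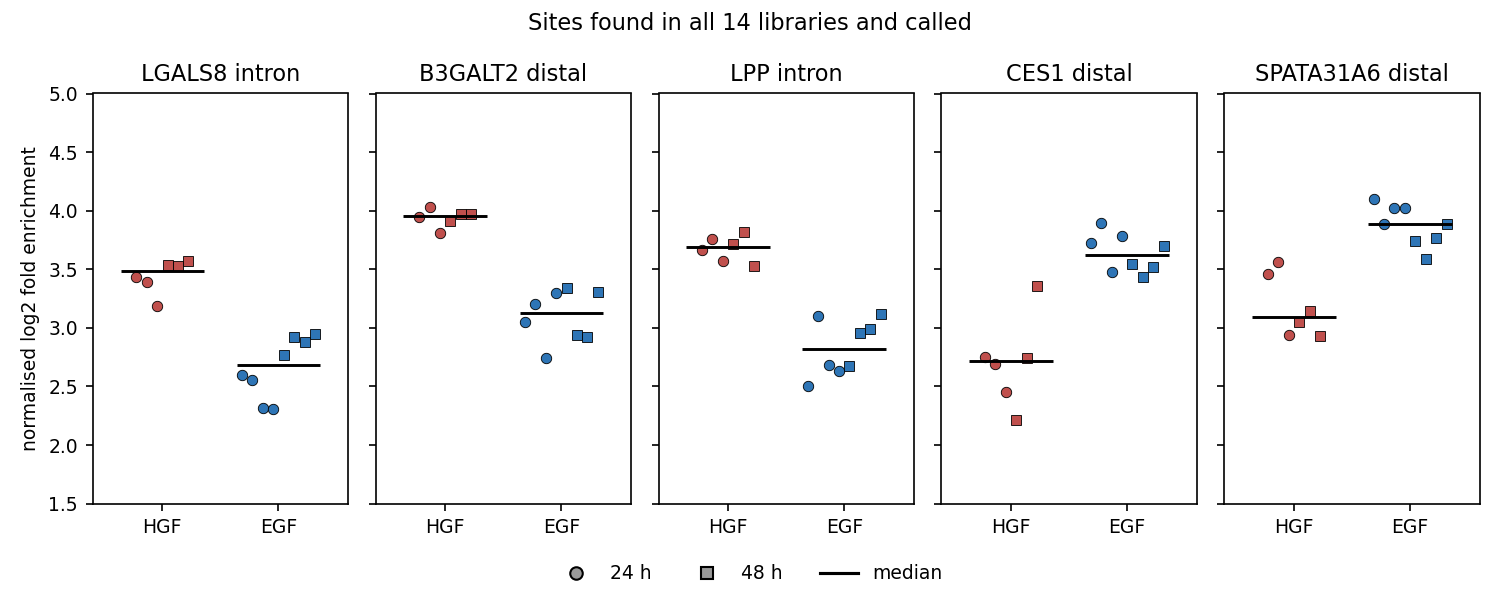
Normalised log2 fold enrichment (vertical axis, from 1.5) in each HGF and EGF library (horizontal axis) at the 5 called sites, circles for 24 h, squares for 48 h and lines for medians. The ligands do not overlap at any of the 5, with differences of 0.78, 0.84 and 0.84 for the first 3 panels and -0.93 and -0.70 for the last pair.

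At an adjusted p below 0.05, 63 sites stood out, 29 higher and 34 lower in HGF. Those lower in HGF included an AP-1 site in an intron of EMP1, an epithelial membrane protein (chr12:13206074-13206841; difference -0.69, SE 0.115, limma adjusted p = 0.0121), with 1 of 6 PBS libraries holding the peak. Also lower were sites in introns of GLI3, a transcription factor of the Hedgehog pathway (-0.67, adjusted p = 0.0122), of GSN, the actin-severing protein gelsolin (-0.55, adjusted p = 0.0260), and of NRG1, the ERBB3 ligand neuregulin (-0.52, adjusted p = 0.0317). Higher in HGF were sites in an intron of WWOX, an oxidoreductase (0.64, adjusted p = 0.0121), and 49770 bp from SULF2, a sulphatase that trims heparan sulphate (0.70, adjusted p = 0.0230). The ligands overlapped at the SULF2 site, with 3.34 to 3.68 in HGF and 2.24 to 3.75 in EGF. Its difference was 0.99 at 24 h and 0.41 at 48 h. None of the sites named here passed the threshold of 0.01.

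No difference in peak strength was detected at the promoters of the receptors. The MET promoter had a peak in all 14 libraries, at 3.58 ± 0.22 (normalised log2 fold enrichment, SD, n = 6) with HGF and 3.35 ± 0.20 (n = 8) with EGF, a difference of 0.22 (SE 0.117, limma adjusted p = 0.525). The EGFR promoter was at 3.31 against 3.27 (adjusted p = 0.952), that of ERBB2, its partner receptor, at 3.08 against 3.18 (adjusted p = 0.882), and that of ERBB3 at 2.83 against 2.81 (adjusted p = 0.966). Among EGFR ligands, the promoters of TGFA, AREG and HBEGF also had a peak in all 14 and did not pass the test. That of EREG had one in 4 of 6 HGF and 3 of 8 EGF libraries. Neither the HGF nor the EGF gene had a promoter peak in any of the 14 libraries.

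Sites within 50000 bp of the start of a gene, promoter sites included, were grouped by role, and no gene of any list had a site called in detection. Per list, the counts at an unadjusted p below 0.05 were read against all 78521 sites, of which 5.75% were higher and 5.18% lower in HGF with a median difference of 0.00553. The MET axis (the receptor, its ligand and the proteases that activate it) had 3 higher and 3 lower of 66 sites (median 0.0142). The ERBB axis had 3 higher and 7 lower of 89 (median -0.0686). The shared adaptors had 6 and 4 of 83 (median -0.0644).

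Further from the receptor, immediate early genes had 6 higher and 9 lower of 99 sites (median 0.0142), and MAPK feedback genes 2 and 3 of 69 (median 0.0142). Invasion and motility genes had 5 higher and 11 lower of 164 (median -0.0686), and YAP target genes 1 and 3 of 57 (median -0.0726). Cell cycle genes had 8 higher and 3 lower of 82 (median 0.0386), basal and luminal keratin and lineage genes 8 and 5 of 106 (median 0.0319), and STAT3 and inflammation genes 6 and 5 of 89 (median -0.0686). Peak strength at sites found in all 14 libraries was counted the same way, with 4.79% of all such sites higher and 5.75% lower in HGF. Invasion and motility genes had 6 higher and 1 lower of 55 there, the reverse of their detection. YAP target genes had 3 and 3 of 20. No list was tested, and most shares in detection were near those of all sites.

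The best site of a gene, the one with the lowest p in its neighbourhood, was taken from each list as an example, and a best site is chosen to be extreme. Near FOSL1, which encodes the AP-1 subunit FRA1, a site lay at chr11:65911618-65912200 (11491 bp away). Its nearest gene was C11orf68 (6450 bp away), and it held 1 TEAD match and no AP-1 match. The site had a peak in 2 of 4 EGF libraries at 24 h, 4 of 4 at 48 h and 0 of 6 HGF libraries (difference -0.764, SE 0.156, limma adjusted p = 0.0787). The 4 CTRL libraries held it and the 6 PBS libraries did not. Sites near CCN2, a YAP target, and in an intron of ITGA3, a laminin receptor subunit, were each found in 5 EGF and 0 HGF libraries (difference -0.652, adjusted p = 0.0787).

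On the HGF side, a site 16950 bp from CDKN1A, the cell cycle inhibitor p21, a site 48061 bp from CXCL8, a chemokine, and a site that lies near KRT6A, KRT6B and KRT5 (chr12:52473821-52474066) were each found in 4 HGF and 0 EGF libraries (difference 0.629, limma adjusted p = 0.0787). A site 4801 bp from EGR1, an immediate early transcription factor, was found in 6 of 6 HGF and 2 of 8 EGF libraries (difference 0.770, adjusted p = 0.207) and in all PBS and CTRL libraries. Strength at sites found everywhere gave values past an adjusted p of 0.05, but not of 0.01, near 2 list genes. A site 26544 bp from CCN1, another YAP target (chr1:85606935-85607662), ran from 1.93 to 2.62 with HGF (median 2.43) and from 2.60 to 3.50 with EGF (median 2.95), a difference of -0.60 (SE 0.127, limma adjusted p = 0.0375). A site near PLAU, the protease urokinase (chr10:73932111-73932946), was lower with HGF by 0.45 (difference -0.45, adjusted p = 0.0413).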

How the data were processed

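The ATAC-seq libraries came from 50000 cells each. Per the labels and the methods of the study, the authors trimmed reads with Trimmomatic 0.36.5, aligned them to hg38 with Bowtie2 2.3.4.1, removed duplicates with Picard and called peaks in each library with MACS2 2.1.1.20160309.5. The deposited peak lists give a score, a fold enrichment (ratio over background) and −log10 p- and q-values for each peak, and no counts, so read depth is not known here. Peak number stood in for it. Sites were merged over the 14 libraries with 1 bp overlap and kept with peaks in at least 2. Adjusted detection and quantile-normalised log2 fold enrichment were fitted with limma 3.58.1 in R 4.3.3, with 1 mean for each of the 4 ligand and time groups. Exact permutations (1225 label sets within time, 35 within 1 time) used Python 3.11.15 and numpy 2.4.6. Gene positions were those of protein-coding genes in GENCODE 44. The scripts were tested on simulated data with 200 sites changed at once, while the real data held 3 complete switches higher and 5 lower in HGF. Complete switches in the simulated data passed the threshold over both times when higher in HGF, and not when lower in HGF or within 1 time. Shifts to a detection of 0.9 against 0.1 passed in neither direction, over both times or within 1 time. The simulation thus does not show that a few switched sites would be called.

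The design was written for peak lists, and the libraries, lists, motifs and named sites were chosen with earlier results of these data known. The text names called sites, or the 5 with the lowest p in each direction where none was called, shortened to examples, all sites that separate the ligands, up to 10 in each direction at sites in all 14 libraries, and the 3 genes of each list with the lowest p. Replicates are called biological by the study, and the labels give only letters. Same-lettered HGF and EGF libraries correlated at -0.00201 to 0.0381 and different-lettered ones at -0.0839 to 0.0433. At 24 h the same-lettered values ran from 0.0278 to 0.0381, and most different-lettered values were below 0. Letters were taken as names and not as pairs, which these small values do not settle. Libraries ran on lanes 4 to 8, with both ligands on each of the lanes. Alternatives were raw detection, a stricter peak threshold (−log10 q of at least 5), equal peak numbers, other site filters, library weights, lane, the replicate letter, other normalisations, and leaving out each library. A separating site and a list gene are not reported here.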

Additional observations from a re-analysis of the deposited data

Results flagged for a closer look

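In groups of 4 libraries, 34 were examined over 17 measures for a library that stood apart by Dixon's criterion (the gap to the nearest library over the range of the group), and 3 had one. Chance gives about 1 in 20 groups. All 3 were the same library, EGF 24 h replicate B, which had the fewest peaks of its group (44099) and failed the study's quality check. Its ETS motif deviation was -4.51% against -0.114 to 0.706% in the other EGF libraries at 24 h. Its EGR motif deviation was -7.43% against 0.452 to 1.52%, and its STAT motif deviation was -1.84% against 1.42 to 1.78%. None of the 3 motifs differed between the ligands after adjustment.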

How the results depend on the processing

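Calls in detection over both times were 0 under 9 alternatives and with each library left out (0 to 0), but 66 with equal peak numbers, 611 with library weights and 39 with all 13 groups. Library weights also gave 575 at 24 h, 1474 at 48 h and 11 for the time difference. At 24 h, the count was 569 without the libraries that failed the quality check and 0 to 456 with 1 library left out. For enrichment, an adjusted p below 0.05 gave 63 sites over both times and 9 at 24 h, cyclic loess gave 1 at 24 h, and leaving out 1 library gave 3 to 10 over both times and 0 to 3 at 24 h. Motifs past the threshold numbered 12 without the libraries that failed the quality check, 12 with classes crossed with promoter and GC content, 2 with equal peak numbers, 3 at sites without AP-1 letters (chosen after the data were seen), and 2 to 8 with 1 library left out. The causes were not tested.

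The replicate letter as a block (replicate block) gave 3 enrichment calls over both times in place of 5, with the CES1 (limma adjusted p = 0.0362) and SPATA31A6 (0.0367) sites no longer called, and 0 in detection. It changed no other call.

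Peak number (log10) and promoter share had no detectable difference and no stable sign. With 1 library left out, the difference in log10 peak number ran from -0.0864 to 0.0246 over both times, -0.0780 to 0.130 at 24 h and -0.172 to 0.0462 at 48 h, and was -0.00117 at 24 h with a stricter peak threshold. That in promoter share ran from -0.256 to 2.87, -2.70 to 3.54 and -0.953 to 3.87 points, and was -1.62 at 24 h without the libraries that failed the quality check. ETS reversed to 1.00 with equal peak numbers. EGR reversed to -0.462 with the replicate block, -1.56 without the libraries that failed the quality check, -1.02 with classes crossed with promoter and GC, -1.24 without AP-1 letters, and ran from -1.38 to 1.06 with 1 library left out. Without counts, depth limits all detection values.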

Other observations

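Motifs outside the 5 that passed gave further values. Letters of the p53 and p63 family stood at 1205 sites and deviated by 5.26 more in HGF than in EGF (two-sided exact permutation p = 0.0229, adjusted p = 0.0784). At 48 h the HGF libraries were at 3.50, 6.26 and 1.77% and the EGF libraries at -0.109, -0.695, -1.71 and -8.09%. At 24 h the ligands overlapped (exact permutation p = 0.314). HGF libraries were then at 2.99, 6.81 and -4.78% and EGF libraries at 0.421, -2.14, -2.14 and -5.54%. p63 is a regulator of basal epithelial cells. Letters of the GRHL factors deviated by 4.92 more in HGF (exact permutation p = 0.0539, adjusted p = 0.144), and those of CEBP factors by 3.16 more (p = 0.0751, adjusted p = 0.180). STAT letters were lower by 2.55 (difference -2.55, exact permutation p = 0.0220, adjusted p = 0.0784), and SRF letters, which mark serum response genes, differed by -3.14 (p = 0.0514, adjusted p = 0.144).

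IRF letters followed neither ligand. Their deviation was 26.8% in HGF 24 h replicate C, 20.6% in HGF 48 h replicate C and 25.9% in EGF 24 h replicate B, the libraries with the fewest peaks among the 14, and between -10.2 and 4.43% in the other 11. CTCF letters, which mark insulators and loop anchors, stood at -13.1% in EGF 24 h replicate B and between -5.79 and 9.35% in the other 13.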
